A study of Drosophila melanogaster with 12 samples.

Results

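The comparison described here sets heads of flies fed pentylenetetrazole (PTZ) and levetiracetam (LEV) for 2 d against heads of flies fed both drugs for 12 h. Its members are 8 of the 12 arrays of the study, 4 for each time, and the measure is the mean log2 ratio at 2 d minus the mean log2 ratio at 12 h. A probe entered when it had a value on at least 3 of the 4 arrays of both times. This left 855 of 13824 probes, of which 126 carried 1 gene symbol and stood for 124 of the 6793 genes so named on the array.

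PTZ provokes seizures in many animals and blocks the chloride channels that GABA, the main inhibitory transmitter, opens. LEV is an antiepileptic drug that in mammals binds SV2A, a protein of synaptic vesicles. A fly head holds the brain, the compound eyes with their photoreceptors, fat body, muscle and cuticle, so RNA of a whole head mixes all of these, and fewer cells of one type cannot be told apart from less RNA per cell.

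The flies were unmated Oregon-R males of *Drosophila melanogaster*, a wild-type strain, kept 30 to a vial at 24 degrees C. Treated flies of both groups ate food with 8 mg/ml PTZ and 5 mg/ml LEV, for 12 h or for 2 d, and the control flies of each time ate the same food without drugs. Their age was not settled here, since it is labelled as 3 to 4 days but males are described as kept for a further 10 to 11 days before use. Each array hybridised RNA of 1 pool of treated heads together with RNA of 1 pool of control heads of the same time, and per the design text the 4 arrays of each time came from separate biological replicates. A difference between the times can therefore come from the treated or from the control flies, and these cannot be told apart.

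Replicates 1 and 2 of each time held the treated RNA in the red dye Cy5, and replicates 3 and 4 held it in the green dye Cy3. The sources do not say whether the deposited ratio is red over green or treated over control. Differences are therefore given in both orientations, and the values of single arrays and of the dye-swapped arrays alone are given turned: "turned" means that the sign of replicates 3 and 4 was reversed, and "as deposited" means that it was not. Replicates 1 and 2 read the same either way. The 12 h arrays held values on 2091, 2813, 5213 and 7372 of 27648 spots, and the 2 d arrays on 2017, 2020, 1868 and 1434.

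No gene and no probe passed the test for a difference between 2 d and 12 h. In the turned orientation limma with Benjamini-Hochberg adjustment called 0 of 855 probes, and the smallest adjusted p was 0.502. At an unadjusted p under 0.05 it counted 27 probes (3.16% of those tested), 18 higher (2.11%) and 9 lower (1.05%) at 2 d, where 42.75 would be expected if no probe differed. As deposited it also called 0 probes, with a smallest adjusted p of 0.600, and 45 probes (5.26%) had an unadjusted p under 0.05, 36 higher (4.21%) and 9 lower at 2 d. Among the 124 genes the count at that level was 1 (0.806%) turned and 0 as deposited. None of the differences given below passed the test, and each is a description of these 8 arrays.

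**Figure D1:**
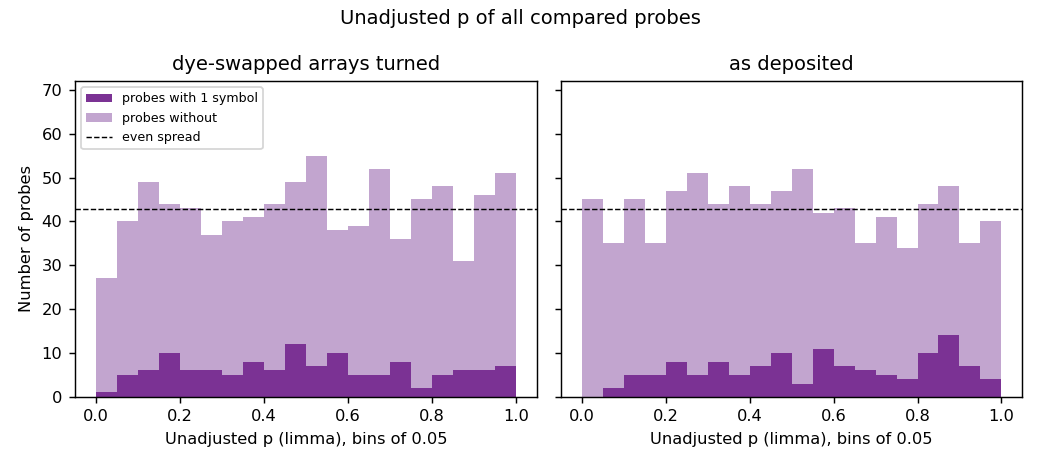
Number of the 855 probes (y axis) in each bin of unadjusted p from limma (x axis), with the dye-swapped arrays turned (left) and as deposited (right); dark bars are probes with 1 gene symbol, light bars the other probes, and the dashed line is an even spread over the bins. On the left the bin under 0.05 holds 27 probes and on the right 45.

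The named genes lay mostly below 0, which means a lower ratio of drug-fed to control flies at 2 d than at 12 h. In the turned orientation 92 of 124 genes (74.2%) had a difference below 0, beside 436 of all 855 probes (51%) and 342 of the 729 probes without 1 symbol (46.9%). As deposited the counts were 89 of 124 (71.8%) and 433 of 855 (50.6%). The median difference of the genes was -0.27 turned and -0.17 as deposited, and that of all probes was -0.02 and -0.01. Both orientations put 71 genes (57.3%) below 0 and 14 genes (11.3%) above it, beside 256 (29.9%) and 242 (28.3%) of all probes. Of the probes without 1 symbol 25.1% lay below 0 in both and 31.3% above.

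In the turned orientation this lean of the genes was all but absent without 2 arrays, and by count replicate 2 of 2 d carried more of it. The median gene stood at 0.13, 0.10, 0.43 and -0.04 on the 12 h replicates 1 to 4, turned, and at 0.04, -0.59, 0.12 and 0.06 on those of 2 d. Replicate 3 of 12 h was thus the highest of its group and replicate 2 of 2 d the lowest, and on the latter the probes without 1 symbol had a median of 0.48. Without replicate 3 of 12 h, 90 of the 124 genes lay below 0, with a median of -0.16. Without replicate 2 of 2 d the count was 74 (59.7%) with a median of -0.09, and without both arrays it was 63 (50.8%) with a median of -0.02. Of the probes without 1 symbol 48.8%, 52.4% and 53.1% lay below 0 in these settings, in the same order. As deposited the count of genes below 0 was 70 (56.5%) without replicate 2 of 2 d and 97 (78.2%) without both. What set these 2 arrays apart was not tested.

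**Figure D2:**
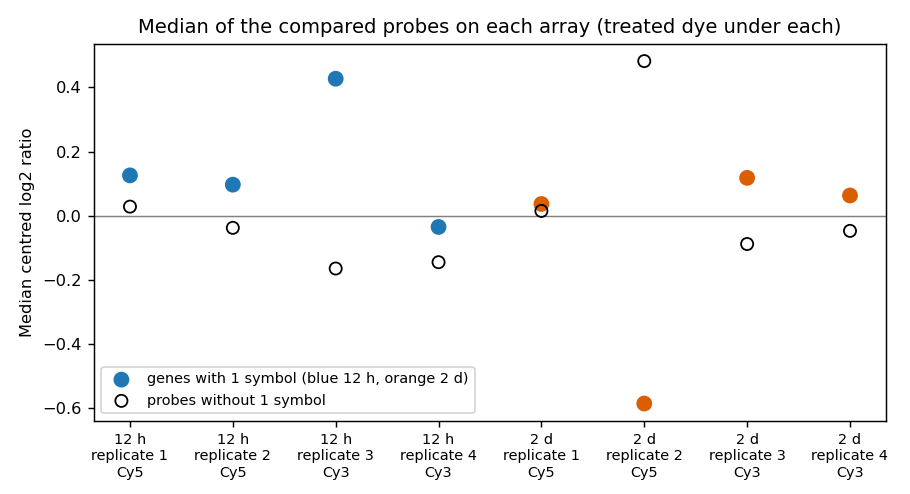
Median centred log2 ratio (y axis) of the genes with 1 symbol (filled) and of the other compared probes (open) on each of the 8 arrays (x axis), with replicates 3 and 4 turned. The genes of 2 d replicate 2 sit at -0.59 and the other probes of that array at 0.48, while those of 12 h replicate 3 sit at 0.43.

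The 2 times also differed in how arrays of opposite dye resembled each other. Over the genes, as deposited, the mean Pearson correlation between arrays of opposite dye was -0.135 within 12 h (4 array pairs) and 0.285 within 2 d (4 pairs). Arrays of the same dye correlated at 0.270 and 0.267 (2 pairs each). Over these genes arrays of opposite dye were thus on average more alike when turned at 12 h and more alike as deposited at 2 d. The cause was not tested. Over all 855 probes the opposite-dye means were 0.0430 within 12 h and 0.223 within 2 d, so the mean at 12 h was not negative there. Same-dye means over all probes were 0.0467 within 12 h and 0.129 within 2 d (2 pairs each). With 12 h turned and 2 d as deposited, a setting chosen after seeing this, limma called 0 of 855 probes, 78 had an unadjusted p under 0.05, and 102 of 124 genes lay below 0 with a median of -0.34.

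Centring mattered as well. Each array was centred on the median of its own probes, and without centring the median difference of all probes was -0.64 and 123 of the 124 genes lay below 0. Centring on the probes with 1 symbol moved the median of all probes to 0.12 and left 79 genes below 0 (median -0.15). Centring on the probes present on all 8 arrays gave 103 genes below 0, and scaling all arrays to 1 spread gave 87.

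Cyp313a1, a cytochrome P450, had the only unadjusted p under 0.05 among the genes. Its turned log2 ratios were 0.60, 0.56, 1.89 and 0.17 at 12 h and -0.64, -1.27, 0.48 and -0.18 at 2 d. All 4 arrays of 12 h were above 0 and 3 of the 4 of 2 d below it, but the groups overlapped. The means were 0.81 ± 0.75 (SD, n = 4) and -0.40 ± 0.74 (SD, n = 4), a difference of -1.21 with a 95% interval of -2.42 to -0.0031 (unadjusted p = 0.0495, adjusted p = 0.996, limma). As deposited the difference was -0.33. It was -1.54 on the arrays with the treated RNA in Cy5 and, turned, -0.88 on the dye-swapped arrays. Its highest value was on replicate 3 of 12 h and its lowest on replicate 2 of 2 d. Turned, the difference was -0.56 without both of these arrays, and -0.84 with only pairs that had a value on both spots.

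The turned orientation held 6 genes whose 2 groups of arrays did not overlap (4.84%), beside 26 of all 855 probes (3.04%). Lower at 2 d were rtp, RNASEK, Apt1 and Lamp1 (3.23% of the genes, beside 1.52% of all probes), and higher were CR32477 and CG2269 (1.61%, beside 1.52%). As deposited 3 genes did not overlap (2.42%, beside 4.09% of all probes): CG7781, ATPsynE and t, all lower at 2 d, beside 1.64% of all probes lower and 2.46% higher. No gene was without overlap in both orientations.

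RNASEK, ribonuclease kappa, had turned log2 ratios of 0.60, 0.46, 0.26 and 0.13 at 12 h and of -0.11, -0.67, -0.16 and -0.16 at 2 d. Every 12 h array was above 0 and every 2 d array below it. The difference was -0.64 ± 0.30 (SE, n = 4 and 4, unadjusted p = 0.0654, adjusted p = 0.996, limma). It was -0.28 as deposited, and -0.51 turned without replicate 2 of 2 d.

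Apt1, an acyl-protein thioesterase that removes palmitate from proteins, had turned ratios of 0.54, 0.26, 0.94 and 0.20 at 12 h and of -0.12, -0.19, -0.10 and -0.05 at 2 d. The 2 d arrays lay close together (SD 0.055) just under 0, and the 12 h arrays all lay above it. The turned difference was -0.60, with -0.55 on Cy5 arrays and -0.65 on dye-swapped arrays, while as deposited it was 0.05.

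Lamp1, a glycoprotein of the lysosome membrane, had turned ratios of 0.24, 0.40, 1.06 and 0.34 at 12 h. At 2 d its lowest array was replicate 2 at -0.55 and its highest replicate 3 at 0.06. The difference was -0.64 turned and 0.03 as deposited. Of the 7 genes of membrane traffic and lysosome, 6 lay below 0 turned (median -0.30) and 4 as deposited (median -0.15). Scamp was the exception when turned, at 0.04, and stood at -0.47 as deposited.

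CR32477 had a value on 3 arrays at each time: -0.54, -0.44 and -0.41 at 12 h and 0.66, -0.14 and 0.15 at 2 d, turned. The difference was 0.69 ± 0.40 (SE, n = 3 and 3, unadjusted p = 0.133, adjusted p = 0.996, limma), and 0.02 as deposited. CG2269 had turned ratios of -0.16, -0.86, -0.30 and -0.012 at 12 h and of 0.31, 0.06 and 0.23 at 2 d. Its difference was 0.53 turned and 0.22 as deposited, with 0.69 on the Cy5 arrays and, turned, 0.39 on the dye-swapped ones.

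**Figure D3:**
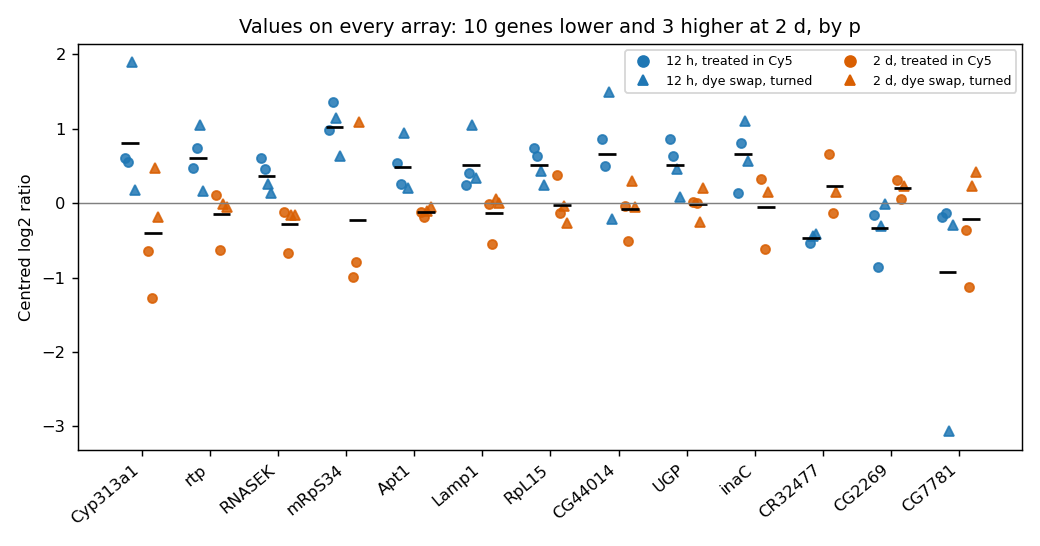
Centred log2 ratio (y axis) on every array for 13 genes (x axis), the 10 of smallest unadjusted p that were lower and the 3 that were higher at 2 d, with replicates 3 and 4 turned; blue is 12 h, orange 2 d, circles hold the treated RNA in Cy5, triangles are dye-swapped, and bars are means. The groups of rtp, RNASEK, Apt1, Lamp1, CR32477 and CG2269 do not overlap, and 1 array of CG7781 stands at -3.06.

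To describe the rest, 67 of the 124 genes were put into 12 groups by their known roles, after their values had been seen, so the group counts are descriptions. The other 57 were given no role, and 36 of them (63.2%) lay below 0, turned. The genes with a role thus lay below 0 more often than all genes, so the groups do not stand for all genes. Each group's turned count is to be read against the 74.2% of all genes, and its count as deposited against 71.8%. Without both arrays that stood apart the share of all genes was 50.8% turned and 78.2% as deposited. As deposited without replicate 2 of 2 d it was 56.5%. Counts under other centring or scaling are to be read against those of all genes given above.

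The eye group held 6 genes, and all 6 lay below 0 when turned, with a median of -0.68. Photoreceptors turn light into current through rhodopsin, phospholipase C and TRP channels. The group held inaC, the eye protein kinase C that shuts the response down, and rdgC, the phosphatase that removes phosphate from rhodopsin. It also held rtp, the photoreceptor protein retinophilin, and rdhB, a retinol dehydrogenase that renews the chromophore. The last members were Xport-A, a chaperone of TRP and rhodopsin, and t (tan), which frees histamine, the photoreceptor transmitter, from its conjugate.

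For rtp the turned ratios were 0.47, 0.74, 1.05 and 0.17 at 12 h and 0.11, -0.62, -0.01 and -0.05 at 2 d. The lowest 12 h array lay above the highest 2 d array. The difference was -0.75 ± 0.34 (SE, n = 4 and 4, unadjusted p = 0.0582, adjusted p = 0.996, limma), and -0.11 as deposited.

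For inaC the turned ratios were 0.14, 0.81, 1.11 and 0.57 at 12 h and 0.33, -0.62 and 0.15 at 2 d. Replicate 1 of 12 h was below 2 of the 2 d arrays, so the groups overlapped. The difference was -0.70 turned and 0.03 as deposited.

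For rdgC the turned ratios were -0.21, 0.71, 0.62 and 0.48 at 12 h and -0.15, -0.96 and 0.26 at 2 d. Again replicate 1 was the low array of 12 h and replicate 2 that of 2 d. The difference was -0.68 turned and -0.31 as deposited. For rdhB the difference was -0.69 turned and 0.10 as deposited, so its sign reversed. For Xport-A it was -0.32 turned and -0.19 as deposited. For t it was -0.15 turned and -0.46 as deposited.

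The wider phototransduction list had 17 genes on the array and 2, inaC and rdgC, in the comparison. Turned, all 6 eye genes stayed below 0 without replicate 3 of 12 h (median -0.49) and without replicate 2 of 2 d (median -0.38). They also did so without both arrays (median -0.27), and under every centring and scaling tried. Without centring, however, 123 of all 124 genes lay below 0, so that setting could hardly show otherwise. Centring on probes of all 8 arrays put 103 genes below 0, 1 spread 87 and centring on 1-symbol probes 79. As deposited 4 of the 6 eye genes lay below 0 (median -0.15). It was 2 of 6 without replicate 2 of 2 d (median 0.03) and 6 of 6 without both arrays (median -0.19). Of 6 photoreceptor markers on the array (Arr1, Arr2, inaC, inaD, trp and trpl), 4 had values on at least 3 arrays at 12 h and 1, inaC, did so at 2 d. The direction of the others between the times was thus not measured.

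The list of respiratory chain and ATP synthase subunits, which make most of a cell's ATP, had 43 genes on the array and 7 in the comparison. All 7 lay below 0 turned (median -0.19) and 6 as deposited (median -0.27), where COX4 stood at 0.05. The sizes were small beside the spread between arrays. ATPsynE, a subunit of the ATP synthase, ran from -0.31 to 0.03 at 12 h and stood at -0.05, -1.17 and 0.74 at 2 d, turned. Its difference was -0.02 turned and -0.83 as deposited, where the groups did not overlap (unadjusted p = 0.0615, adjusted p = 0.952, limma). ATPsynO, in the stalk of the same enzyme, had a difference of -0.41 turned and -0.27 as deposited, with a ratio of -1.06 on replicate 2 of 2 d. ATPsynB, COX4, a subunit of cytochrome c oxidase, and ND-51, a subunit of complex I, had turned differences of -0.09, -0.29 and -0.19, and -0.05, 0.05 and -0.19 as deposited. Turned, 5 of the 7 lay below 0 with centring on probes with 1 symbol, 6 with 1 spread and 5 without both arrays that stood apart. As deposited without both arrays it was 6 of 7.

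Of the 6 other mitochondrial genes 5 lay below 0 turned and 3 as deposited. The widest difference was that of mRpS34, a protein of the small mitochondrial ribosomal subunit. Its turned ratios were 0.98, 1.37, 1.14 and 0.63 at 12 h and -0.997, -0.79 and 1.10 at 2 d. All 12 h arrays were above 0, while at 2 d both Cy5 arrays were below it and the dye-swapped array was not. The difference was -1.26 turned (unadjusted p = 0.0661, adjusted p = 0.996, limma) and -1.10 as deposited. It was -2.07 on Cy5 arrays and, turned, 0.21 between the dye-swapped arrays, of which 2 d has only 1. Marf, a mitofusin that joins mitochondria, was the gene above 0, at 0.28 turned and 0.04 as deposited.

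The list of glycolysis, pentose phosphate and glycogen genes had 20 genes on the array and 5 in the comparison. All 5 lay below 0 in both orientations, with a median of -0.41 turned and -0.23 as deposited. UGP, which makes UDP-glucose, had turned ratios of 0.87, 0.64, 0.46 and 0.08 at 12 h and of 0.01, 0.0063, -0.25 and 0.20 at 2 d. The highest 3 values were those of 12 h. Its difference was -0.52 turned and -0.23 as deposited. Gpdh1, glycerol-3-phosphate dehydrogenase, had a difference of -0.45 turned and -0.15 as deposited, with 1.48 on replicate 3 of 12 h and at most 0.14 on the other 3 arrays of that time. Gapdh1 and Tpi, enzymes of glycolysis, had turned differences of -0.41 and -0.19, and -0.49 and -0.07 as deposited. Gbs-70E, a glycogen-targeting subunit of protein phosphatase 1, was below 0 on all 4 arrays of 12 h, between -0.74 and -0.18, and stood at -1.04, -1.42, -0.22 and 0.21 at 2 d, turned. Its difference was -0.14 turned and -0.77 as deposited. Without both arrays that stood apart 2 of the 5 genes lay below 0 turned (median 0.11) and 5 of 5 as deposited (median -0.36).

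The 8 detoxification and stress genes had 7 below 0 in each orientation, the same 7 in both, with medians of -0.35 and -0.32. Among them GstE12, a glutathione transferase, had a difference of -0.41 turned and -0.19 as deposited, and Sesn, a sestrin, one of -0.32 and -0.31. DnaJ-1, a co-chaperone of heat shock protein, had one of -0.27 turned and -0.49 as deposited. Cyp6d5 stood at 0.15 turned and 0.03 as deposited. Without both arrays that stood apart 5 of the 8 lay below 0 turned (median -0.18) and 8 of 8 as deposited (median -0.28). The P450 list had 72 genes on the array and 3 in the comparison.

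Among 7 ribosome and translation genes 5 lay below 0 turned (median -0.28) and 4 as deposited (median -0.0054). RpL15, a protein of the large ribosomal subunit, had turned ratios of 0.74, 0.63, 0.43 and 0.25 at 12 h and 0.37, -0.14, -0.04 and -0.27 at 2 d. The groups overlapped through replicate 1 of 2 d. The difference was -0.53 turned and -0.04 as deposited. RpS7, of the small subunit, stood at 0.01 and -0.0054, and pAbp, the poly(A)-binding protein, at 0.0038 and 0.16.

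RNA-binding genes were evenly split when turned. Of 6, 3 lay below 0 turned (median 0.04) and 4 as deposited (median -0.21). Hrb87F, an hnRNP protein, had turned ratios of -0.0035, -0.35, -0.55 and -0.47 at 12 h and -0.17, -0.30 and 0.07 at 2 d, a difference of 0.21. As deposited it was -0.35. The turned difference of mub was 0.23 and that of hfp, a splicing regulator, 0.19, and both were negative as deposited, at -0.54 and -0.17. Of 5 transcription genes 4 lay below 0 turned and 5 as deposited. MED26, a Mediator subunit, was the one above 0 when turned, at 0.29, with -0.51 as deposited.

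Of 6 secreted and immune genes 5 lay below 0 turned and 6 as deposited. Jhbp13, named as a juvenile hormone binding protein, had turned ratios of 0.34, 0.68, 0.77 and -0.15 at 12 h and -0.56, -1.26, 0.45 and 0.09 at 2 d. The groups overlapped, and the Cy5 arrays were the ones below 0 at 2 d. The difference was -0.73 turned and -0.69 as deposited, with -1.42 on Cy5 arrays and, turned, -0.04 on dye-swapped ones. BomT2, a peptide of the Bomanin family of the immune response, and SPE, the protease that activates the Toll ligand Spätzle, had turned differences of -0.51 and -0.17, and -0.20 and -0.44 as deposited. Yp2, a yolk protein, was the one above 0 when turned, at 0.11, and stood at -0.08 as deposited.

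Genes of glutamate handling and muscle were few. Gs2, a glutamine synthetase of glia, stood at 0.06 turned and 0.05 as deposited, and Eaat2, a transporter of excitatory amino acids, at -0.17 and -0.16. The glutamate receptor gene Nmda1, given no role here, stood at -0.49 turned and 0.0021 as deposited. Act79B, a muscle actin, stood at -0.39 turned and -0.67 as deposited, with -1.06 on Cy5 arrays and, turned, 0.28 on dye-swapped ones. Zasp66, a protein of the muscle Z disc, stood at -0.06 and -0.07.

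The genes closest to the action of both drugs could not be compared. The list of GABA genes and drug targets had 8 genes on the array, and 0 of them were in the comparison. At 12 h Gad1, which makes GABA, had values on 2 arrays, the glutamate-gated chloride channel GluClalpha on 3 and the GABA receptor subunit Lcch3 on 1. At 2 d all 8 had none. The neuron markers on the array, Appl and nSyb, had values at 12 h on fewer than 3 arrays and none at 2 d. No value of these genes at 2 d was thus measured here, which says nothing of their level. Of 24 gene lists, 7 had no gene in the comparison, synaptic vesicle release and the circadian clock among them.

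**Figure D4:**
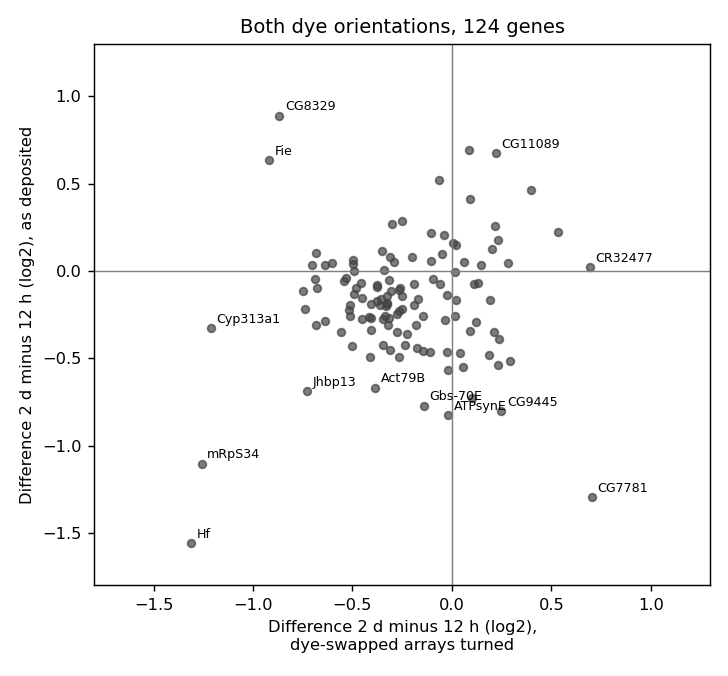
Difference 2 d minus 12 h of 124 genes with the dye-swapped arrays turned (x axis, log2) against the same difference as deposited (y axis, log2); each point is a gene. Below 0 on both axes lie 71 genes and above 0 on both 14, and CG7781 and CG8329 lie on opposite sides of 0 in the 2 orientations.

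Some genes had a different sign in the 2 orientations. CG7781 had turned ratios of -0.18, -0.14, -3.06 and -0.29 at 12 h and -0.36, -1.13, 0.23 and 0.41 at 2 d. One array of 12 h, replicate 3, was far below the rest. The difference was 0.71 turned and -1.29 as deposited, and turned without that array it was -0.0096. CG8329 had turned ratios of 0.46, 0.26, 1.47 and 0.38 at 12 h and 1.08, -0.51 and -1.25 at 2 d. Its difference was -0.87 turned and 0.89 as deposited. In all 85 of 124 genes (68.5%) had the same sign in both orientations, beside 498 of 855 probes (58.2%) and 56.4% of the probes without 1 symbol. For genes on all 8 arrays the difference on Cy5 arrays is the sum of the differences in the 2 orientations. Both orientations use the same 8 arrays, so a sign shared by both is not a repeat measurement.

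Few genes lay on the same side of 0 on every array of both times. Turned, 2 genes (1.61%) were always above 0 and 1 (0.806%) always below, beside 0.702% and 0.234% of all probes. As deposited 3 genes (2.42%) were above and 3 below, beside 4.09% and 2.34% of all probes. The share of genes always above 0 was thus higher than that of all probes when turned and lower as deposited, and the counts are small. CG11089 had turned ratios of 0.99, 0.97, 1.17 and 0.07 at 12 h and of 1.09, 1.73 and 0.25 at 2 d. All 7 values were above 0, and the means were 0.80 ± 0.50 (SD, n = 4) and 1.02 ± 0.74 (SD, n = 3), or 0.18 and 0.86 as deposited. CG6287 was also above 0 on all its arrays when turned, with means of 0.36 and 0.45, and SAK, a kinase of centriole duplication, was below 0 on all of its own. As deposited, ATPsynB, Marf and RpS7 were above 0 on all their arrays, and Blimp-1, Fie and Gpdh1 below. Miox, myo-inositol oxygenase, had turned means of 0.45 at 12 h and 0.42 at 2 d, a difference of -0.02 with a 95% interval of -0.73 to 0.69, and -0.14 as deposited. Cyp28d1, another P450, had turned means of 0.56 and 0.45, although its replicate 3 of 12 h stood at -0.43. As deposited its means were 0.16 and -0.31, on opposite sides of 0.

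**Figure D5:**
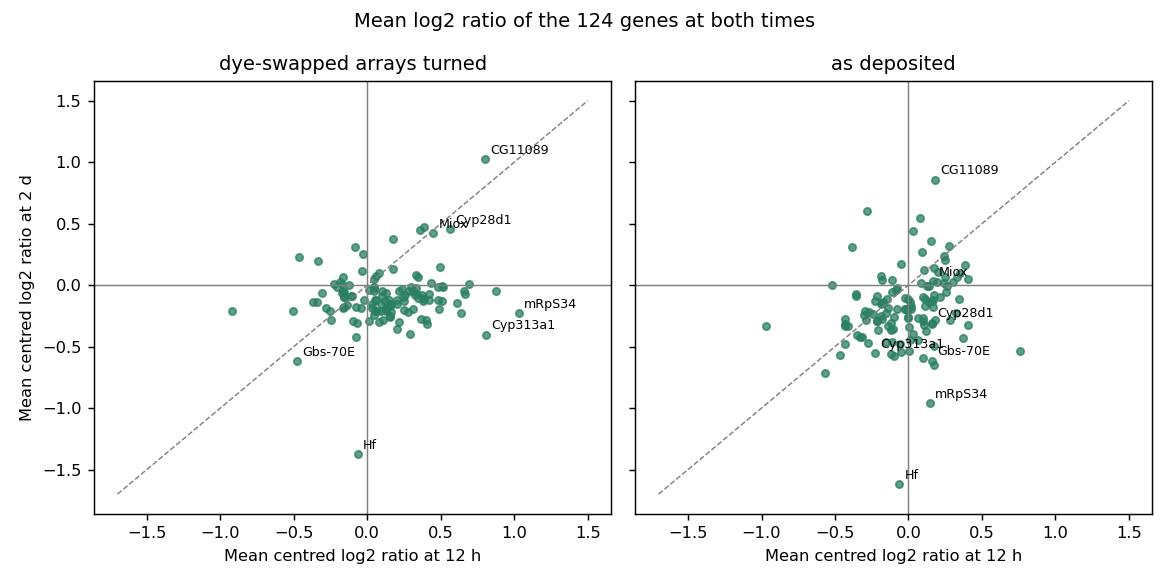
Mean centred log2 ratio at 12 h (x axis) against that at 2 d (y axis) for 124 genes, with dye-swapped arrays turned (left) and as deposited (right); the dashed line marks equal means. CG11089 is high at both times in the left panel (0.80 and 1.02), and mRpS34 moves from 1.03 at 12 h to -0.23 at 2 d.

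The spread between arrays set what could be seen. The median SD of a gene over the arrays of a time was 0.37 at 12 h and 0.43 at 2 d, turned, and it was 0.96 and 0.99 for probes without 1 symbol. Differences of size over 1 were found for 3 genes (2.42%) and for 169 of the 729 other probes (23.2%). The widest gene difference, -1.31 turned and -1.56 as deposited, was that of Hf, which rested on a ratio of -4.38 on replicate 2 of 2 d, and turned without that array it was 0.19. Probes without 1 symbol made up 85.3% of the compared probes and 45.3% of those on the array. Replicate 4 of 2 d held values for 75 of the 124 genes, and 67 genes had a value on all 8 arrays.

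Both genes with more than 1 compared probe gave like turned values. The 2 probes of CAH1, a carbonic anhydrase, had turned differences of -0.07 and -0.07, though 0.52 and -0.05 as deposited. Those of Oda, the ornithine decarboxylase antizyme, had -0.13 and -0.26 turned and -0.06 and -0.10 as deposited.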

How the data were processed

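The deposited values are log2 ratios of both dye channels that the authors had normalized and filtered. Images were, per the design text of the series, quantified in GenePix Pro 6.0 and ratios normalized in Acuity 4.0, leaving out spots of raw intensity under 100. The authors kept spots whose signal-to-noise ratio reached 3 and whose pixel regression R2 reached 0.6, with under 3% of pixels saturated. Scanner intensities were not used here, so signal over background is unknown, and the number of arrays limits the precision.

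Adjacent spots of a probe were averaged and each array was centred on its median. Of 13824 probes 7558 had 1 symbol, 51 several and 6215 none, and 7447 were found in RefSeq (Release 6 plus ISO1 MT). Differences were fitted in R 4.3.3 with limma 3.58.1 (lmFit and eBayes, 8 arrays, no covariate), with p-values adjusted over all 855 probes, and the code was checked on simulated data. A gene was represented by its probe with the most arrays. The labels do not number the dye-swapped 12 h arrays, so accession order names them. The source names of 2 d replicate 4 call both channels untreated, and its treatment protocols settled the group.

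Named were the 10 genes of smallest p in each direction turned, 5 as deposited, genes without overlap in both orientations, up to 4 members of each list with at least 5 genes, and all compared GABA genes. Other genes were named after their values were seen. The comparison and lists were chosen with earlier results of these data known. Alternatives were other centring, scaling, filters, dye sets, fits and arrays left out.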

Additional observations from a re-analysis of the deposited data

Results flagged for a closer look

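Groups of 4 values were searched for an array far from the other 3, and 6 of 65 groups held one. Chance marks about 1 in 20 such groups when they are independent and unselected. The genes flagged here had been named by their p in these data, and the flags lie on 2 arrays. The 2 rates are thus not comparable. On 12 h replicate 3 the turned log2 ratio was -3.06 for CG7781, 1.47 for CG8329 and 1.53 for CG9663, while the other arrays of that time lay between -0.29 and -0.14, 0.26 and 0.46, and -0.06 and 0.07. On 2 d replicate 2 the ratio was -0.67 for RNASEK and -0.55 for Lamp1. The median of the genes stood at -0.59 on the same array, with the other 2 d arrays between 0.04 and 0.12.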

How the results depend on the processing

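No probe was called under any of the settings run, and the smallest adjusted p was 0.0903 (limma, only pairs with both spots). Probes at an unadjusted p under 0.05 numbered 45 as deposited, 54 without centring, 16 of 558 with all 4 arrays required, 41 with dye as a term, 7 of 126 with only 1-symbol probes fitted and 78 with 12 h turned and 2 d as deposited, and 16 to 38 when 1 array was left out. Whether replicates of the same number were paired across the times is not known. Replicate 1 minus replicate 2 at 12 h correlated with that at 2 d at r = 0.00399 over 754 probes. Same-dye arrays within 12 h correlated at only 0.0467 over all probes, so this r cannot exclude pairing. With the replicate block 0 were called and 38 of 754 had an unadjusted p under 0.05 (limma). The median of the genes was -0.89 without centring and -0.37 to -0.12 leaving out 1 array. The respiratory median was -0.79 without centring, -0.49 on Cy5 arrays alone, -0.49 with the block, and -0.33 to -0.11 leaving out 1 array. The glycolysis median was -0.997 without centring, 0.11 without both arrays that stood apart (turned), and -0.50 to -0.099 leaving out 1 array. Signs of named genes reversed as follows. As deposited: CG7781 -1.29, MED26 -0.51, Hrb87F -0.35, Msr-110 -0.39, CG8329 0.89, CAH1 0.52, Apt1 0.048, Lamp1 0.032, inaC 0.035, kra -0.48 and COX4 0.049. Not centred: CR32477 -0.20, CG2269 -0.16, CG9171 -0.30, Marf -0.41, MED26 -0.51, CG1324 -0.46, CG10077 -0.48, Hrb87F -0.48, Msr-110 -0.37, CG9663 -0.61, CG6287 -0.60 and kra -0.42. Cy5 arrays alone and the block alike: CG7781 -0.59, Hrb87F -0.060, Msr-110 -0.16, CAH1 0.45 and kra -0.29. Dye-swapped arrays alone: Act79B 0.28, ND-51 0.0049 and Gbs-70E 0.63. Without both arrays that stood apart: CG9171 -0.024, CAH1 0.40, CG6287 -0.034, ATPsynE 0.43, ND-51 0.24, Gbs-70E 0.11, Gpdh1 0.23 and Tpi 0.30. Centred on 1-symbol probes: CAH1 0.047, ATPsynE 0.15 and ATPsynB 0.021. Turned at 12 h only: Msr-110 -0.068, CG9663 -0.080, kra -0.14 and ATPsynB 0.15. With centring on probes of all 8 arrays CG9663 (-0.012) and CG6287 (-0.0078) reversed, with 1 spread CAH1 (0.057) and ATPsynE (0.21), with both spots ATPsynE (0.0054) and with dye as a term ATPsynE (0.037). Leaving out 1 array, ranges that crossed 0 were CG7781 -0.0096 to 1.01, CAH1 -0.37 to 0.36, CG9663 -0.064 to 0.47, ATPsynE -0.076 to 0.040, ATPsynB -0.21 to 0.014, ND-51 -0.33 to 0.048, Gbs-70E -0.42 to 0.13 and Tpi -0.40 to 0.096. The causes were not tested. A block over all 8 arrays was not run, since the dye-swapped 12 h arrays carry no number. Signal over background per spot is unknown.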

Other observations

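Spots of a pair printed side by side agreed poorly on the 8 arrays: their Pearson correlation within an array ran from 0.0999 to 0.496, and 19.1% to 40.8% of pairs differed by more than 1 on the log2 scale. The mean ratios of the 124 genes at 12 h and at 2 d had a Pearson correlation across genes of 0.184 turned and 0.206 as deposited. Over all 855 probes it was 0.0116 turned and 0.303 as deposited. Genes are not independent replicates. Which orientation would carry dye effects shared by arrays depends on the unstated direction of the deposited ratio, and such effects were not tested.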
